A study of Mus musculus with 4 samples.

Results

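The genes described here encode the proteins of the cytosolic ribosome. They were taken by name from a count table of 26051 features: symbols that begin with Rpl or Rps followed by a number and at most the letters a, l, x or y, together with Rplp0, Rplp1, Rplp2 and Rpsa. The rule found 82 genes, 31 of the small subunit and 51 of the large subunit, stalk included. It reads names only, so it also took Rpl6l and Rpl32l, annotated as processed pseudogenes in GENCODE M21, and Rps4l, annotated there as a processed transcript.

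The cytosolic ribosome joins a small subunit, which reads the messenger RNA, to a large subunit, which forms the peptide bond and passes the new chain through an exit tunnel. Most ribosomal protein messages begin with a run of C and T bases, the 5′ terminal oligopyrimidine (TOP) tract, through which mTORC1 and Larp1 control their translation and stability. The genes have many processed pseudogenes in mammalian genomes. Microglia are the resident macrophages of the brain and enter it early in embryonic life.

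The study measured poly(A) RNA of mouse microglia at embryonic day 14, with Hat1 knocked out conditionally in microglia by Cre and loxP. Hat1 encodes an acetyltransferase that modifies newly made histones. Libraries ko 1 and ko 3, titled with the knockout, were compared with ff 2 and ff 5, the other 2 libraries. The labels do not spell out ff, the strain, the sex, the Cre driver or the deleted exons, nor whether a library holds 1 embryo or several. Every p-value below therefore measures only the spread between these libraries, which may be technical.

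Total counts ran from 14814846 to 18990917 per library. Values are CPM, the counts of a gene relative to the library size, which was scaled by TMM factors between 0.991 and 1.01. Hat1 had 737 and 581 counts in ko libraries 1 and 3, against 650 and 1149 in ff libraries 2 and 5. The ko libraries lay below both ff libraries, but the ff libraries differed more from each other than ff 2 did from ko, and the gene was not called (log2 fold change -0.61 ± 0.23 SE, adjusted p = 0.298 by edgeR's quasi-likelihood test). Without ko 1 or without ff 2 it was called, at -0.67 (adjusted p = 0.000114) and -0.91 (adjusted p = 0.00286). Without ko 3 or without ff 5 it was not, at -0.57 (adjusted p = 0.612) and -0.25 (adjusted p = 0.535). Where a library is left out, its group holds 1 library, which is assumed to vary like the pair of the other group. Ko library 1 also stood apart by sex-linked transcripts: Ddx3y, a Y-linked gene, had 3188 counts there and 0 in ko 3, ff 2 and ff 5, while Xist had 3 counts there and 3986 in ko 3, 2847 in ff 2 and 3646 in ff 5. All 11 microglial markers used had counts in every library, and their summed level was 15469 and 14569 CPM in ko against 15834 and 15533 CPM in ff. Of them 2, Tmem119 and Aif1, were called higher (1.19% of all tested genes) and 1, Cx3cr1, lower (0.518%). Called means an adjusted p under 0.05 by edgeR. The 12 border-associated macrophage markers summed to 15691 and 17776 CPM in ko and to 22996 and 20264 CPM in ff.

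The bases around the annotated starts of 8 members, from 10 before to 20 from the start, are given to show how far the C and T runs near the start differ between members. They are RefSeq promoter sequences on GRCm38.p6, a build older than the GRCm39 used for the counts, printed 5′ to 3′ on the strand of the gene. Capitals mark a run of at least 6 C or T bases. Rpl15 and Rps6 hold long runs near the start, while Rps25 and Rpl5 hold none in this window and the other 4 hold short ones. The runs of Rpl11 and Rpl4 reach the edge of the window, so they may be longer. Whether the messages begin at these annotated starts was not tested, and some members have several. A window without a run therefore need not mean a message without a TOP tract. Rpl11 was called, Rps2 had the largest fold change, Rplp0 and Rpl4 are among the most counted, and Rps25 and Rpl5 lay near no change. These 8 are not a sample of the members. Over all tested members with a promoter window, the median log2 fold change was 0.40 with a run of at least 8 C or T bases within 30 bases of the start and 0.43 without.
Rpl15 (chr14:18270967-18270996, minus strand): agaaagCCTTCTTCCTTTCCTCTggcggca
Rps6 (chr4:86857348-86857377, minus strand): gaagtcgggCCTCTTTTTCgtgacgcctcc
Rpl11 (chr4:136053374-136053403, minus strand): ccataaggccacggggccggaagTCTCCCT
Rps2 (chr17:24720053-24720082, plus strand): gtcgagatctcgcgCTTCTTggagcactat
Rplp0 (chr5:115559457-115559486, plus strand): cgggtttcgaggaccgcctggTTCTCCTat
Rpl4 (chr9:64173377-64173406, plus strand): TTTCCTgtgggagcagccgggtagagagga
Rps25 (chr9:44407704-44407733, plus strand): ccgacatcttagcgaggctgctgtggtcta
Rpl5 (chr5:107900518-107900547, plus strand): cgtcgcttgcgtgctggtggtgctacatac

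Ribosomal protein genes had higher summed counts in the ko libraries than in the ff libraries. Their summed counts were 1.05% and 0.936% of all counts in ko 1 and ko 3, against 0.672% and 0.804% in ff 2 and ff 5, a mean of 0.992 ± 0.0801% for ko against 0.738 ± 0.0931% for ff (SD over 2 libraries each). The groups did not overlap, and the gap between the nearest libraries, ko 3 and ff 5, was about as large as the spread within a group. The exact 95% intervals, which cover counting error only, ran from 1.04% to 1.05% in ko 1 and from 0.931% to 0.941% in ko 3. The median log2 fold change of the 78 members that passed the count filter was 0.41, or 1.33-fold, with quartiles of 0.32 and 0.51, while all 15840 tested genes had a median of 0.01.

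A single member, Rpl11, passed the threshold as higher in ko, and none as lower. Here and below a gene is called where its adjusted p by edgeR is under 0.05, unless DESeq2 is named. Over all tested genes 270 were called (1.7%), 1.19% higher and 0.518% lower, so 1 of 78 is near the background and is no result about these genes. At an unadjusted p under 0.05, 55 of 78 were higher (8.62% of all genes) and 0 lower (7.56%). DESeq2 called 15 of the 76 members it gave an adjusted p as higher (2.54% of all genes it gave one), and 0 as lower. Rpl11 is the one gene called by both tools, and 8 more members had an edgeR adjusted p between 0.05 and 0.10 (0.694% of all genes).

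Both ko libraries lay above both ff libraries in 69 of 78 members, and below them in 0 (25.8% and 23.8% of all tested genes). The log2 fold change was above 0 in 76 of 78 (51% of all genes). These genes move together across libraries, so the counts are not 78 independent observations. In bulk RNA, more cells with high ribosomal message content and more of the message per cell cannot be told apart.

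The members also followed one order of libraries. Ko 1 was highest in 71 of 78 (91%, against 28.3% of all tested genes) and ff 2 was lowest in 72 (92.3%, against 29.2%). The full order ko 1, ko 3, ff 5, ff 2 held in 61 (78.2%, against 9.27%). The median deviation from a gene's own mean was 0.29 in ko 1 and 0.13 in ko 3, against -0.34 in ff 2 and -0.07 in ff 5, on the log2 scale.

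The differences inside a group were of the same order as the difference between groups. The median of ff 5 minus ff 2 was 0.26, that of ko 1 minus ko 3 was 0.16, and that of ko 3 minus ff 5, the nearest libraries of the 2 groups, was 0.20. Without ff 2 the median fold change was 0.285, and without ko 1, the library with Y-linked transcripts, it was 0.324. Members called higher numbered 0 without ff 2 (0.863% of all genes then tested) and 12 without ko 1 (2.51%), beside 31 without ko 3 (5.2%) and 22 without ff 5 (1.3%). They numbered 40 of 82 with no filter on low counts (2.99%), 3 with no scaling (1.4%) and 0 when transcript length and GC content were fitted as an offset (0.985%). Rplp0, Rplp1, Rps3, Rpl6 and Rpl10 were called without ko 3 and without ff 5, Rpl17 and Rps19 without either of these or ko 1, Rplp2, Rps4x and Rps9 without ko 3, and Rps4l without ko 1, with edgeR adjusted p-values from 0.00623 to 0.0378.

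**Figure D1:**
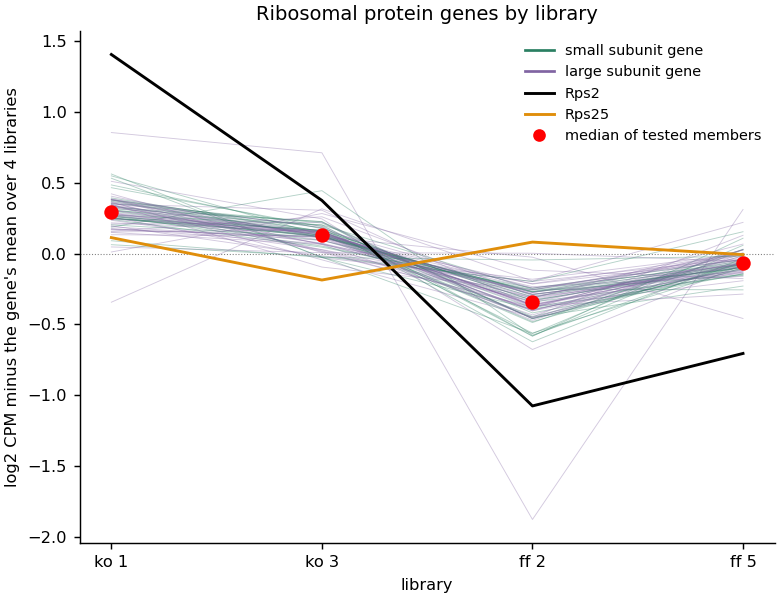
Log2 CPM of each of the 78 tested ribosomal protein genes minus its mean over the 4 libraries, with ko 1 and ko 3 left of ff 2 and ff 5, 1 line per gene, Rps2 and Rps25 drawn thick, and the median as red points. The medians are 0.29, 0.13, -0.34 and -0.07, and most lines run together.

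Small subunit genes stood at a median log2 fold change of 0.49, with 30 of 31 above 0. EdgeR called 0 of them and DESeq2 called 8 higher, beside 1.19% and 2.54% of all genes called higher by these tools. Rps2, the small subunit protein at the messenger RNA entry channel, had 817.7 and 400.5 CPM in ko libraries 1 and 3, against 146.6 and 189.5 CPM in ff libraries 2 and 5. The groups did not overlap, but the ko libraries differed from each other by 1.03 on the log2 scale. The log2 fold change was 1.86 ± 0.45 (SE), the largest of the members, with an adjusted p of 0.227 by edgeR. DESeq2 called it (adjusted p = 0.0147). EdgeR called it without ko 1 (1.24, adjusted p = 6.67e-22) and without ko 3 (2.28, adjusted p = 1.76e-06), where only the ff pair, which lay close, has a replicate. With both ko libraries kept it was far from the threshold, at an adjusted p of 0.887 without ff 2 and 0.68 without ff 5.

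The Rps2 row is uncertain, since 58.5% of its 100-base stretches also occur in other GENCODE transcripts, 36 of its pseudogenes among them. How the authors treated reads with several matches was not given in the sources used here. Its neighbour Ndufb10, a complex I subunit, had 34.5 and 34.6 CPM in ko and 30.9 and 29.4 CPM in ff. Its neighbour Tbl3, a nucleolar assembly factor, had 24.8 and 27.6 CPM in ko and 28.6 and 30.3 CPM in ff, and neither was called. Without Rps2 the share of counts still differed by 0.21 percentage points, against 0.254 with it.

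Rps19, the gene most often mutated in human Diamond-Blackfan anaemia, had 56.0 and 45.2 CPM in ko and 27.1 and 37.4 CPM in ff, a log2 fold change of 0.65 (adjusted p = 0.165). Rps28 had 9.26 and 6.94 CPM in ko and 4.64 and 5.40 CPM in ff. Both were apart between groups and neither was called by edgeR, while DESeq2 called Rps19 (adjusted p = 0.0318). Without ko 1 the log2 fold change of Rps28 was 0.45, against 0.69 with it. The 13 genes listed here for that human disease, a chosen part of those known, had a median of 0.50. EdgeR called Rpl11 among them (1.19% of all genes were called higher), and DESeq2 called Rpl11 and Rps19 (2.54%). Rps3, at the messenger RNA entry site, shares no 100-base stretch with any other transcript. It had 688.1 and 649.7 CPM in ko and 460.8 and 548.1 CPM in ff (0.41, adjusted p = 0.0972). Rps9 had 543.0 and 485.8 CPM in ko and 377.8 and 432.4 CPM in ff, with a log2 fold change of 0.34. These groups too lay apart without passing by edgeR, and DESeq2 called Rps3 (adjusted p = 0.0189).

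Rps25, a small subunit protein that viral internal entry sites depend on, had the lowest fold change of the tested members, at 161.8 and 131.5 CPM in ko, against 158.3 and 148.9 CPM in ff, and the groups overlapped (-0.07 ± 0.11, adjusted p = 0.808). The gene shares 56.8% of its stretches and overlaps Trappc4 in GENCODE M21, so its row is uncertain. Sharing sets the same limit for all 34 of 82 members that share at least 50%. Rpl10 (84.4%) and Rpl17 (77.1%), which had higher fold changes, are among them. Rps18, with a log2 fold change of 0.03, also had overlapping groups.

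**Figure D2:**
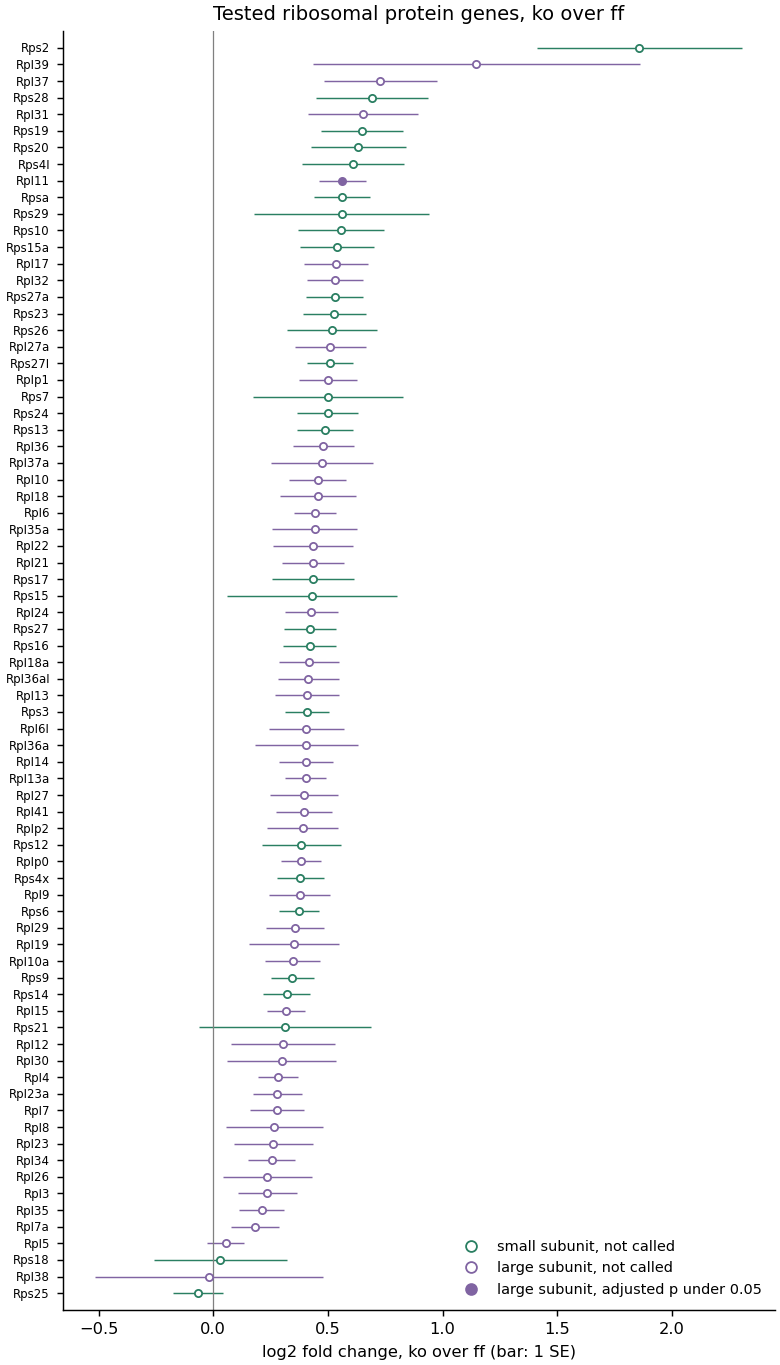
Log2 fold change of ko over ff with 1 SE for 76 of the 78 tested members, in order, with small subunit genes in green and large subunit genes in purple, and filled points past the adjusted p of 0.05 by edgeR. Rps2 stands far out at 1.86 with a wide error, Rpl11 is the one filled point, and Rps25 and Rpl38 lie below 0.

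Large subunit genes stood at a median log2 fold change of 0.40, with 46 of 47 above 0. EdgeR called 1 of them, and DESeq2 called 7 higher, beside 1.19% and 2.54% of all genes called higher by these tools. Rpl11 joins Rpl5 and 5S ribosomal RNA in a particle that can also bind Mdm2, the ubiquitin ligase of p53. Rpl11 had 126.0 and 109.7 CPM in ko, against 74.8 and 84.7 CPM in ff, and rose by 0.56 ± 0.10 (SE) on the log2 scale (adjusted p = 0.0418). The groups lay well apart. The call depended on ff 2, without which the value was 0.47 with an adjusted p of 0.121, and it was lost when length and GC content were fitted as an offset (0.44, adjusted p = 0.0764).

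Its partner Rpl5 had 82.6 and 80.3 CPM in ko and 80.1 and 77.0 CPM in ff, a log2 fold change of 0.05 ± 0.08 (adjusted p = 0.796). The values of the 2 groups nearly touched. Rpl5 shares 91.1% of its stretches with other transcripts, a pseudogene and Fam69a among them, and Rpl11 shares 59.7%. The difference between the changes of the partners was not tested.

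The stalk, which recruits translation factors, is made of Rplp0 and the acidic proteins Rplp1 and Rplp2. Rplp0 had 1073 and 999.6 CPM in ko and 742.1 and 848.7 CPM in ff (0.38 ± 0.09, adjusted p = 0.0894). Rplp1 had 117.3 and 98.6 CPM in ko and 68.7 and 84.0 CPM in ff (0.50, adjusted p = 0.129). Rplp2 had 37.8 and 30.01 CPM in ko and 23.5 and 28.3 CPM in ff (0.39, adjusted p = 0.273). All 3 lay above in both ko libraries, as 25.8% of all tested genes did, and none passed by edgeR. DESeq2 called Rplp0 (adjusted p = 0.0209) and Rplp1 (adjusted p = 0.034). Without ko 1 the value of Rplp2 was 0.20.

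The exit tunnel is lined by Rpl4, Rpl17 and Rpl39. Rpl4, the most counted member, had 1391 and 1301 CPM in ko and 1030 and 1187 CPM in ff (0.28, adjusted p = 0.190). Rpl17 had 55.2 and 49.4 CPM in ko and 31.4 and 40.7 CPM in ff (0.54, adjusted p = 0.127). Rpl39 had only 17 and 13 counts in ko and 2 and 10 in ff, so its value of 1.15 ± 0.71 rests on few reads. Without ff 2 the value of Rpl4 was 0.18 and that of Rpl39 was 0.47, and without ff 5 that of Rpl39 was 2.57. None of the tunnel genes was called by edgeR, and DESeq2 called neither Rpl4 nor Rpl17 and gave Rpl39 no adjusted p.

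Of the remaining named large subunit genes, Rpl6 had 654.3 and 583.3 CPM in ko and 428.8 and 481.3 CPM in ff (0.44, adjusted p = 0.0626). Rpl10, an X-linked protein that joins the subunit late, had 565.8 and 497.5 CPM in ko and 342.7 and 432.2 CPM in ff (0.46, adjusted p = 0.158). Both lay apart between groups, and DESeq2 called both (adjusted p = 0.00594 for Rpl6 and 0.0191 for Rpl10). Without ff 2 the value of Rpl10 was 0.30. Rpl37 (0.73, and 0.46 without ff 2) and Rpl31 (0.65) had larger fold changes at low counts and did not pass. Rpl7a had 114.1 and 98.6 CPM in ko and 87.9 and 99.7 CPM in ff, and Rpl38, needed in mice for normal patterning of the axial skeleton, had 0.799 and 1.26 CPM in ko and 0.886 and 1.18 CPM in ff. The groups of both overlapped.

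**Figure D3:**
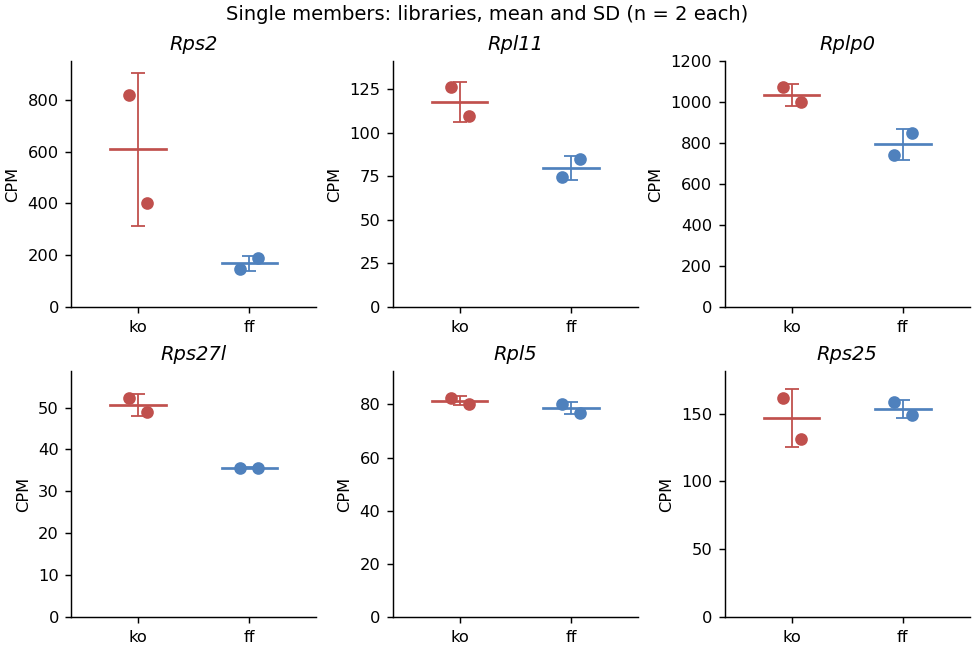
CPM of 6 members, with each library as a point, and bars for the mean and SD (n = 2 each), ko left of ff, on axes that start at 0. Rps2 has 817.7 and 400.5 CPM in ko against 146.6 and 189.5 in ff, Rpl11, Rplp0 and Rps27l lie apart between groups, and Rpl5 and Rps25 show groups that nearly touch or overlap.

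Retained paralogs that the name rule took include Rps27l, a copy of Rps27 that p53 activates. It shares no stretch with other transcripts and had 52.4 and 48.8 CPM in ko, against 35.7 and 35.5 CPM in ff (0.51 ± 0.10, adjusted p = 0.0537). The ff libraries nearly coincided and ko lay clear of them, just short of the threshold, and DESeq2 called it (adjusted p = 0.0494). EdgeR called it without ko 1 (adjusted p = 0.031) and without ko 3 (adjusted p = 0.00953), where only the ff pair has a replicate, and not without ff 2 (adjusted p = 0.209) or without ff 5 (adjusted p = 0.132). Rpl36al, a copy of the X-linked Rpl36a, had 25.5 and 27.3 CPM in ko and 18.5 and 20.99 CPM in ff (0.41), and Rpl36a itself had 10.1 and 10.2 CPM in ko and 6.34 and 8.88 CPM in ff (0.41). Rps4l had 12.7 and 15.2 CPM in ko and 7.5 and 10.8 CPM in ff (0.61), beside the X-linked Rps4x at 90.6 and 83.3 CPM in ko and 61.6 and 72.1 CPM in ff (0.38). Without ff 2 the value was 0.18 for Rpl36a and 0.37 for Rps4l, and without ff 5 it was 0.65 for Rpl36a. Apart from Rps27l by DESeq2, none of these passed. The 4 X-linked members (Rpl10, Rpl36a, Rpl39 and Rps4x) had a median of 0.43, and each lay above in both ko libraries, as 25.8% of all tested genes did.

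The other 4 members failed the filter. Rpl3l, a paralog of heart and skeletal muscle, had 1 and 2 counts in ko and 2 and 1 in ff. Rpl39l, a paralog of the testis, had 5 and 0 counts in ko and 3 and 3 in ff, and Rpl32l was near 0. Rpl28, a protein of every cytosolic ribosome, had 2 counts in ko 1 and was listed at 0 in ko 3, ff 2 and ff 5. Every cell uses this gene, so the table says only that it is listed at 0, and low values of other members carry the same limit.

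The levels of the members, as CPM per kilobase of coding sequence, ran from 4.06 (Rpl39) to 976 (Rpl4) with a median of 92.5, a 241-fold range over 76 genes with a coding length. This is a level, not a difference between groups. The 6 most counted genes, Rpl4, Rplp0, Rps3, Rpl6, Rpl10 and Rps9, held 48.2% of all member counts. Of the 82 members, 73 share at least one 100-base stretch with another GENCODE transcript and 34 share at least 50% of theirs. Across members, the Spearman correlation of the level was 0.05 with the shared percentage and 0.34 with coding length (n = 76, genes that share libraries). Rps21 shares no stretch and had 7.30 CPM per kilobase.

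Median fold changes lay close at low and high sharing. The 10 tested members with under 5% shared had a median of 0.47, all 10 above 0, and the 34 with at least 50% shared had a median of 0.40. The percentage depends on the transcript chosen. Rps15a, among the 10 at 3.03%, was taken at 5179 bases with a coding part of 390. The 10 also include Rps4l, a processed transcript, and Rpl39, which had few reads. The Spearman correlation between shared percentage and fold change was -0.18 (n = 78), and between coding length and fold change -0.28 (n = 76). Level and fold change had a Spearman correlation of 0.01 (n = 76).

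Transcript length moved with the comparison. Among all other tested genes with a length, the median log2 fold change was 0.06 under 750 bases, 0.12 from 750 to 1500, 0.04 from 1500 to 3000, -0.04 from 3000 to 6000 and -0.09 above. The members stood at 0.42, 0.40, 0.43 and 0.59 in the first 4 of these classes (30, 37, 9 and 2 genes). Each length is that of a chosen GENCODE M21 transcript, which need not be the message counted. The last 2 genes are Rps20 and Rps15a, at 3706 and 5179 bases with coding parts of 357 and 390. Their class may therefore hold no long messages. With length and GC content fitted as an offset the members' median was 0.30.

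**Figure D4:**
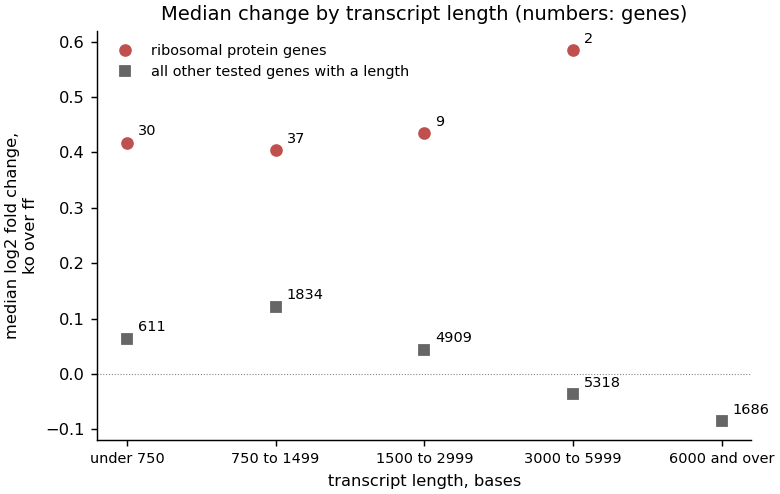
Median log2 fold change of ko over ff by transcript length for the ribosomal protein genes (circles) and all other tested genes with a length (squares), with the number of genes beside each point. The members stand at 0.40 to 0.59 in each class that holds any, and the other genes between -0.09 and 0.12. Each length is that of a chosen GENCODE M21 transcript, which need not be the message counted.

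Neighbouring gene groups had smaller medians. The 8 ribosomal proteins whose names the rule does not reach had a median of 0.34. EdgeR called 0. DESeq2 called Fau, a small subunit protein made as a ubiquitin-like fusion, higher (log2 fold change 0.53 by DESeq2, adjusted p = 0.0093). Of all genes it gave an adjusted p, DESeq2 called 2.54% higher. Rps3a1, a small subunit protein, had 463.9 and 420.1 CPM in ko and 324.1 and 384.8 CPM in ff (0.32, adjusted p = 0.193, and 0.20 on the log2 scale without ff 2). Rpl7l1, an assembly-related paralog of Rpl7, had a log2 fold change of 0.02. The 78 mitochondrial ribosomal proteins had a median of 0.14 with 0 called, and their 2 most counted genes, Mrpl10 and Mrpl12, had 0.23 and 0.10. For these genes the median of ff 5 minus ff 2 was -0.0042, and that of ko 1 minus ko 3 was -0.012, so the order of libraries seen in the cytosolic genes was not visible in them. The 39 short nuclear respiratory genes had a median of 0.22, with Cox4i1 at 0.26 and Cox6a1 at 0.17, and 0 called.

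A mixed list of 40 translation factors and TOP messages, not all of them known to carry a TOP tract, had a median of 0.13. It does not measure TOP messages as a class. EdgeR called 0. DESeq2 called Eif3f, Btf3 and Naca higher (adjusted p of 0.000367, 0.0139 and 0.0492), beside 2.54% of all genes it gave an adjusted p. Eef1a1, the elongation factor that brings transfer RNA to the ribosome, had 6621 and 6090 CPM in ko and 4869 and 5452 CPM in ff (0.30, adjusted p = 0.141), apart between groups. Eif4a1, the initiation helicase, had 893.6 and 912.9 CPM in ko and 1055 and 912.9 CPM in ff (-0.12, and -0.02 without ff 2). The 48 ribosome assembly genes had a median of -0.03. EdgeR called 0. DESeq2 called Rrn3, an initiation factor of RNA polymerase I, lower (adjusted p = 0.0494), beside 1.68% of all genes it gave an adjusted p. The list includes the nucleolar protein Ncl (0.11) and Rrp1 (0.05).

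Of 24 genes of mTORC1 and translational control, edgeR called 1, Deptor, as lower (0.518% of all genes). DESeq2 also called Deptor lower (1.68% of all genes it gave an adjusted p). It called Eif2ak2, an interferon-induced kinase, higher (adjusted p = 0.00189), beside 2.54% of all genes. Single calls in so short a list are no result about the list. Deptor, an inhibitory partner of mTOR, had 65.4 and 63.1 CPM in ko and 99.0 and 97.8 CPM in ff, and fell by 0.62 on the log2 scale (SE 0.08, adjusted p = 0.00966). Its groups lay far apart and close within. Rheb, the GTPase that activates mTORC1, had 209.4 and 189.6 CPM in ko and 157.5 and 156.4 CPM in ff (0.35, adjusted p = 0.0943, and 0.0197 without ko 3), and the kinase Rps6ka1 had 0.02. The list's median was 0.02. The 16 ribosome quality control genes had a median of -0.01 with 0 called. Rack1, a scaffold on the small subunit, stood at 0.15 and Abce1, the recycling ATPase, at -0.09. Rack1 is also among the ribosomal proteins outside the name rule, so these lists overlap.

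**Figure D5:**
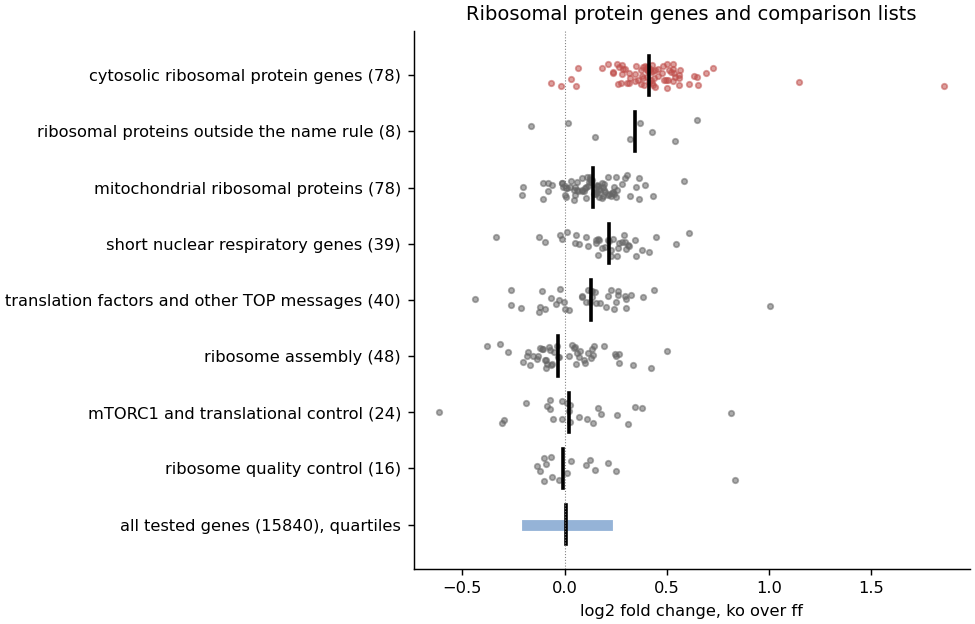
Log2 fold change of ko over ff for the ribosomal protein genes and the 7 other gene groups, 1 point per tested gene with the group's median as a bar, and the quartiles of all 15840 tested genes at the bottom. The medians are 0.41 for the cytosolic ribosomal genes, 0.34 for those outside the name rule and at most 0.22 in the other 6.

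Several marker lists differed between the groups. Among proliferation genes both ko libraries lay above both ff libraries in 10 of 12 (25.8% of all genes), 2 were called higher (1.19% of all genes), and the sum was 792.5 and 794.8 CPM in ko against 610.9 and 687.5 in ff. Lymphocyte markers summed to 131.1 and 137.1 CPM in ko and 114.1 and 101.1 in ff, with 8 of 10 tested markers above in both ko libraries and 1 called higher. Mural and fibroblast markers summed to 700.9 and 502.1 CPM in ko and 295.1 and 447.9 in ff, the order of libraries seen in the ribosomal genes. Of these 10 markers 5 lay above in both ko libraries and 0 were called. Their median of ff 5 minus ff 2 was 0.81, beside a median log2 fold change of 0.75. Of the 12 border-associated macrophage markers 8 lay below in both ko libraries (23.8% of all genes), and 2 were called lower (0.518% of all genes). Neuronal markers summed to 331.7 and 377.6 CPM in ko and 449.4 and 485.4 in ff, with 1 called lower. The remaining 3 lists overlapped between groups, with endothelial markers at 65.8 and 115.8 CPM in ko and 53.0 and 79.4 in ff, neural progenitor markers at 792.4 and 1070 in ko and 828.9 and 1088 in ff, and erythroid markers at 18.6 and 24.4 in ko and 20.8 and 23.7 in ff. No marker of these lists was at 0 in all 4 libraries, and the part of these cells in the ribosomal difference was not tested.

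Promoter windows from 250 bases before to 50 after the start were found for 61 of the 82 members, 73 windows in all. A run of at least 8 C or T bases within 30 bases of the start, on the strand of the gene, stood in 37 (50.7%, against 22.9% of all 32851 windows). CCGGAA, the core letters of ETS sites, stood on either strand in 34 (46.6% against 14.9%). AAGATGGC, part of the YY1 motif, stood in 7 (9.59% against 2.75%), TATAAA in 7 (9.59% against 13.6%) and CACGTG, the E-box, in 8 (11% against 7.15%), again on both strands. A match describes letters only, and whether the annotated starts are those used in these cells was not tested. Tested members with a C and T run had a median log2 fold change of 0.40 (32 genes) and those without one 0.43 (25 genes), and with or without CCGGAA it was 0.41 in both.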

How the data were processed

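Poly(A) RNA was extracted with TRIzol, per the labels' protocols. Paired reads of 150 bases were filtered for quality, and HISAT2 2.0.5 aligned them, per the series' design text. GRCm39 was the build, per the submitters' processing notes. What counted the reads, with which strand setting, annotation and treatment of multiple matches, was not given in the sources used here. Whole-number counts for each gene were deposited, with no normalization, although the design text speaks of FPKM. Of its 26054 lines, 3 held stray text and were left out.

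Libraries were grouped by title. Genes were filtered with edgeR's filterByExpr (15840 kept, 99.85% of counts), scaled with TMM and fitted in edgeR 4.0.16 (R 4.3.3) by its quasi-likelihood method with robust settings, with Benjamini-Hochberg adjustment over all tested genes and a threshold of 0.05. The scripts were tested on simulated data. No exact two-sided permutation p under 0.333 can arise from 2 libraries a group. Libraries of a group differed beyond sampling noise, at 13.9 (ko) and 7.25 (ff) chi-square per degree of freedom. Log2 fold changes are ko minus ff. Intervals cover counting error only.

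Shared sequence is the percentage of a transcript's 100-base stretches found in another GENCODE M21 transcript, either strand. Coding lengths are from the same annotation. The members and lists were chosen with earlier results of these data known. Named members are those called, the 6 largest and 6 smallest fold changes, the 6 most counted, and all of the stalk, 5S, tunnel, paralog and X-linked groups. From each list up to 4 called genes and the 2 most counted are named, and some items are not reported here. Rps21, Rpl28, Rpl32l, Rpl15 and Rps6 were chosen after their values were seen where they fall outside that rule, as were the neighbours of Rps2 and list genes called by DESeq2 alone. Alternatives were DESeq2 1.42.0, limma-voom 3.58.1, other scalings and filters, an offset for length and GC content, added pseudogene rows and each library left out.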

Additional observations from a re-analysis of the deposited data

How the results depend on the processing

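The members' median log2 fold change stayed above 0 in all 14 alternatives, from 0.285 without ff 2 to 0.521 without ff 5, and the share difference from 0.188 to 0.32 percentage points when a library was left out. The number of calls did not hold. Genes called were 270, against 566 with DESeq2, 1386 with no filter and 198 to 1213 with 1 library left out. Members called higher were 1, against 15 with DESeq2, 3 without scaling, 40 with no filter, 0 with the length and GC offset and 0 to 31 with 1 library left out. The cause was not tested. The offset fitted without the members (0 called) and the share without Rps2 were chosen after seeing the data. No paired analysis was possible because the ko numbers 1 and 3 and the ff numbers 2 and 5 share none.

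With the offset, and with the offset fitted without members, medians moved to 0.061 and 0.0637 for mitochondrial ribosomal proteins. They moved to 0.0557 and 0.0574 for the mixed list of translation factors and TOP messages, and to -0.0247 and -0.0248 for quality control. For short respiratory genes they moved to 0.108 and 0.118, and for the 5S particle to 0.21 and 0.215. Ribosomal proteins outside the rule moved to 0.205 with the offset. Assembly was -0.0394 with DESeq2, -0.0393 with its size factors and -0.0416 with TMM without members. Quality control was -0.02 with TMM without members and -0.0285 with 50 counts in each of 2 libraries. With a library left out, medians ran from 0.2 to 0.432 outside the rule and from 0.0968 to 0.132 for mitochondrial ribosomal proteins. They ran from 0.0643 to 0.145 for the mixed list of translation factors and TOP messages. Assembly ran from -0.0157 to -0.0114 and quality control from -0.0338 to 0.0322. The small subunit ran from 0.307 to 0.607 and the 5S particle from 0.235 to 0.363. The listed Diamond-Blackfan genes ran from 0.248 to 0.665 and paralogs from 0.374 to 0.483.

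Of the values of 42 named genes, 506 kept direction and side of the threshold, 53 newly passed, 3 no longer passed and 22 turned sign. With the offset, and the offset without members, these were Rpl5 (-0.0193, -0.0182), Rps18 (-0.0635, -0.0519), Mrpl12 (-0.0309, -0.0251), Rpl7l1 (-0.0382, -0.0378), Rps6ka1 (-0.0255, -0.0273) and Rrp1 (-0.0464, -0.0447). With a library left out, signs turned in Rpl38 (-0.376 to 0.271, positive without ko 1 and, at 0.183, without ff 5), Rpl5 (-0.000118 without ff 5, to 0.0806), Rps18 (-0.133 without ff 2, -0.0227 without ko 1, to 0.194), Rps25 (-0.236 to 0.0719 without ko 3), Rpl7l1 (-0.0307 without ko 3, -0.00283 without ff 5, to 0.0491), Rps6ka1 (-0.00935 without ko 1, to 0.0376) and Rrp1 (-0.00567 without ko 3, to 0.0939). Low counts limit Rpl39, Rpl38, Rps18 and the members that failed the filter.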

Other observations

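Spi1, the macrophage transcription factor, was chosen after its values were seen because it shares with Rps2 a ko 1 level far above the other libraries. It had 460.6 and 114.6 CPM in ko 1 and ko 3, against 91.5 and 79.3 CPM in ff 2 and ff 5, and was not called (log2 fold change 1.75 ± 0.93 SE, adjusted p = 0.511 by edgeR's quasi-likelihood test). The ff libraries and ko 3 lay close together.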
